A study of Sus scrofa with 18 samples.

Results

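Sialyltransferases are the enzymes that attach sialic acid to sugar chains, and NCAM1 is the neural cell adhesion molecule on which the longest such chains are built. Of the enzymes followed here, ST6GAL1 and ST3GAL4 cap the galactose ends of glycoprotein sugar chains with a single sialic acid, each in its own linkage. ST8SIA4 is a polysialyltransferase and extends that cap on NCAM1 into polysialic acid, a long charged polymer that loosens contact between cells while neurons grow and form connections. The 4 genes were taken by symbol, as all probe sets that carry exactly 1 of these symbols in the platform annotation. They numbered 9 of the 24123 probe sets in the table and 4 of the 6765 named genes: 2 probe sets for ST6GAL1, 1 for ST3GAL4, 2 for ST8SIA4 and 4 for NCAM1.

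A total of 18 retina samples from male piglets of a Landrace by Large White cross, collected at postnatal day 38, were measured on Affymetrix pig arrays, with 1 array per sample. In the sialyllactose group (9 samples) piglets were fed a milk replacer supplemented with sialyllactose, a sugar of milk that bears a sialic acid, and in the control group (9 samples) they were fed the milk replacer at its basal level, with no supplement named. Both groups were enrolled at 3 days of age and were placed at random, and no dose of sialyllactose stands in the labels. The study is titled for vision and the developing retina, and the comparison asked whether extra dietary sialic acid was accompanied by other transcript levels of the genes that use it. The labels number the replicates but do not say that each came from a different piglet, so p-values and intervals measure the spread between these samples, each called a retina below.

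All values are log2 levels as deposited, in which 1 unit is a doubling of signal. The brightness of a probe set also depends on its probes, so levels of different probe sets are not compared as amounts of transcript. The brightest tested rod marker was the rod arrestin SAG, at 10.6 ± 0.17 in sialyllactose and 10.7 ± 0.10 in control retinas. The brightest Mueller glia marker was the enzyme GLUL, at 10.5 ± 0.31 and 10.6 ± 0.22 (mean ± SD, n = 9 each). Other retinal markers were dimmer: the other of the 2 tested rod genes had a mean level of 3.33, and 4 cone genes ran from 1.65 to 9.63. The 2 tested bipolar and horizontal cell genes were at 1.71 and 2.35. TTR, which is abundant in pigment epithelium, ranged from 5.53 to 8.09 in sialyllactose and from 4.54 to 8.32 in control retinas. The leukocyte list was dim: 5 of its 18 genes were tested, with mean levels of 1.56 to 2.62. One array stood apart from the rest. Control replicate 2 had a mean correlation of 0.983 with the other arrays, where the other arrays had 0.988 to 0.990, and a quality weight of 0.352, the lowest of the 18. It held the highest or lowest value of all 18 retinas in 30.3% of the 16799 tested probe sets and in 5 of the 7 tested probe sets of the 4 genes, so results that rest on it are given with and without it.

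Among the 3 sialyltransferases ST6GAL1 had the widest gap between diet means when all retinas were kept, and ST3GAL4 had it without control replicate 2 or 9 or sialyllactose replicate 3 and with array quality weights. The brighter probe set of ST6GAL1 ran from 4.20 through a median of 4.44 to 4.73 in sialyllactose retinas, and from 4.17 through 4.31 to 4.58 in control retinas. The groups overlapped over most of their range, with 6 of 9 sialyllactose retinas above the control median. The means were 4.44 ± 0.18 and 4.34 ± 0.11 (SD, n = 9 each), a difference of 0.10 with a 95% interval from -0.05 to 0.24, or 1.07-fold with an interval from 0.965 to 1.18. Without sialyllactose replicate 3, the brightest of the 18, the difference was 0.06. The other probe set was dim, at percentile 16.4 of all probe sets by mean level, and lay outside the main test. It ran from 0.888 to 1.26 in sialyllactose and from 0.802 to 1.42 in control retinas and differed by 0.07 (interval -0.09 to 0.22) in the fit that keeps dim probe sets, so both probe sets had the same sign.

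ST3GAL4 had 1 probe set. It ran from 4.07 through a median of 4.38 to 4.49 in sialyllactose retinas, and from 4.05 through 4.17 to 4.73 in control retinas. A total of 8 of 9 sialyllactose retinas lay above the control median, while the 2 highest values of all belonged to control replicates 2 and 9, at 4.73 and 4.67. The means were 4.34 ± 0.14 and 4.28 ± 0.25 (SD, n = 9 each), a difference of 0.06 (95% interval -0.13 to 0.24). It was 0.11 (interval -0.06 to 0.28) without control replicate 2, 0.10 without control replicate 9 and 0.09 without sialyllactose replicate 3. It was 0.03 without control replicate 3 or 6 and 0.04 without control replicate 4 or 5.

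ST8SIA4 was nearly equal in mean, and its control retinas were the more scattered, though a test of the spread did not pass (permutation over all label splits, approximate two-sided p = 0.104). In its brighter probe set, sialyllactose retinas ran from 2.35 through a median of 2.50 to 2.65, and control retinas from 1.96 through 2.65 to 2.81. Control replicates 2, 7 and 4 lay below every sialyllactose retina, at 1.96, 2.28 and 2.30, and the other 6 control retinas lay between 2.63 and 2.81, near or above the top of the sialyllactose range. The means were 2.51 ± 0.09 and 2.54 ± 0.29 (SD, n = 9 each), a difference of -0.03 (95% interval -0.22 to 0.17). That difference was -0.10 (interval -0.25 to 0.06) without control replicate 2, and it turned to 0.004, 0.003 and 0.009 without control replicate 3, 6 or 9. The second probe set was dim at percentile 7.13, ran from 0.416 to 1.01 in sialyllactose and from 0.430 to 1.08 in control retinas, and differed by 0.02 (interval -0.18 to 0.22) outside the main test.

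NCAM1, the acceptor of polysialic acid, was measured by 4 probe sets, all of them tested and named here NCAM1-A to NCAM1-D from the brightest to the dimmest. NCAM1-A ran from 6.29 through a median of 6.48 to 6.60 in sialyllactose retinas, and from 6.39 through 6.50 to 6.66 in control retinas, with means of 6.47 ± 0.09 and 6.51 ± 0.10 (SD, n = 9 each). NCAM1-B had means of 5.64 ± 0.08 and 5.60 ± 0.15, and its lowest value, 5.31, belonged to control replicate 2. NCAM1-C had means of 5.42 ± 0.04 and 5.44 ± 0.08, with all 18 retinas between 5.34 and 5.58. NCAM1-D had means of 3.69 ± 0.09 and 3.68 ± 0.19 and ran from 3.56 to 3.86 in sialyllactose and from 3.37 to 3.93 in control retinas. In each of the 4, the range of sialyllactose retinas overlapped that of control retinas.

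**Figure D1:**
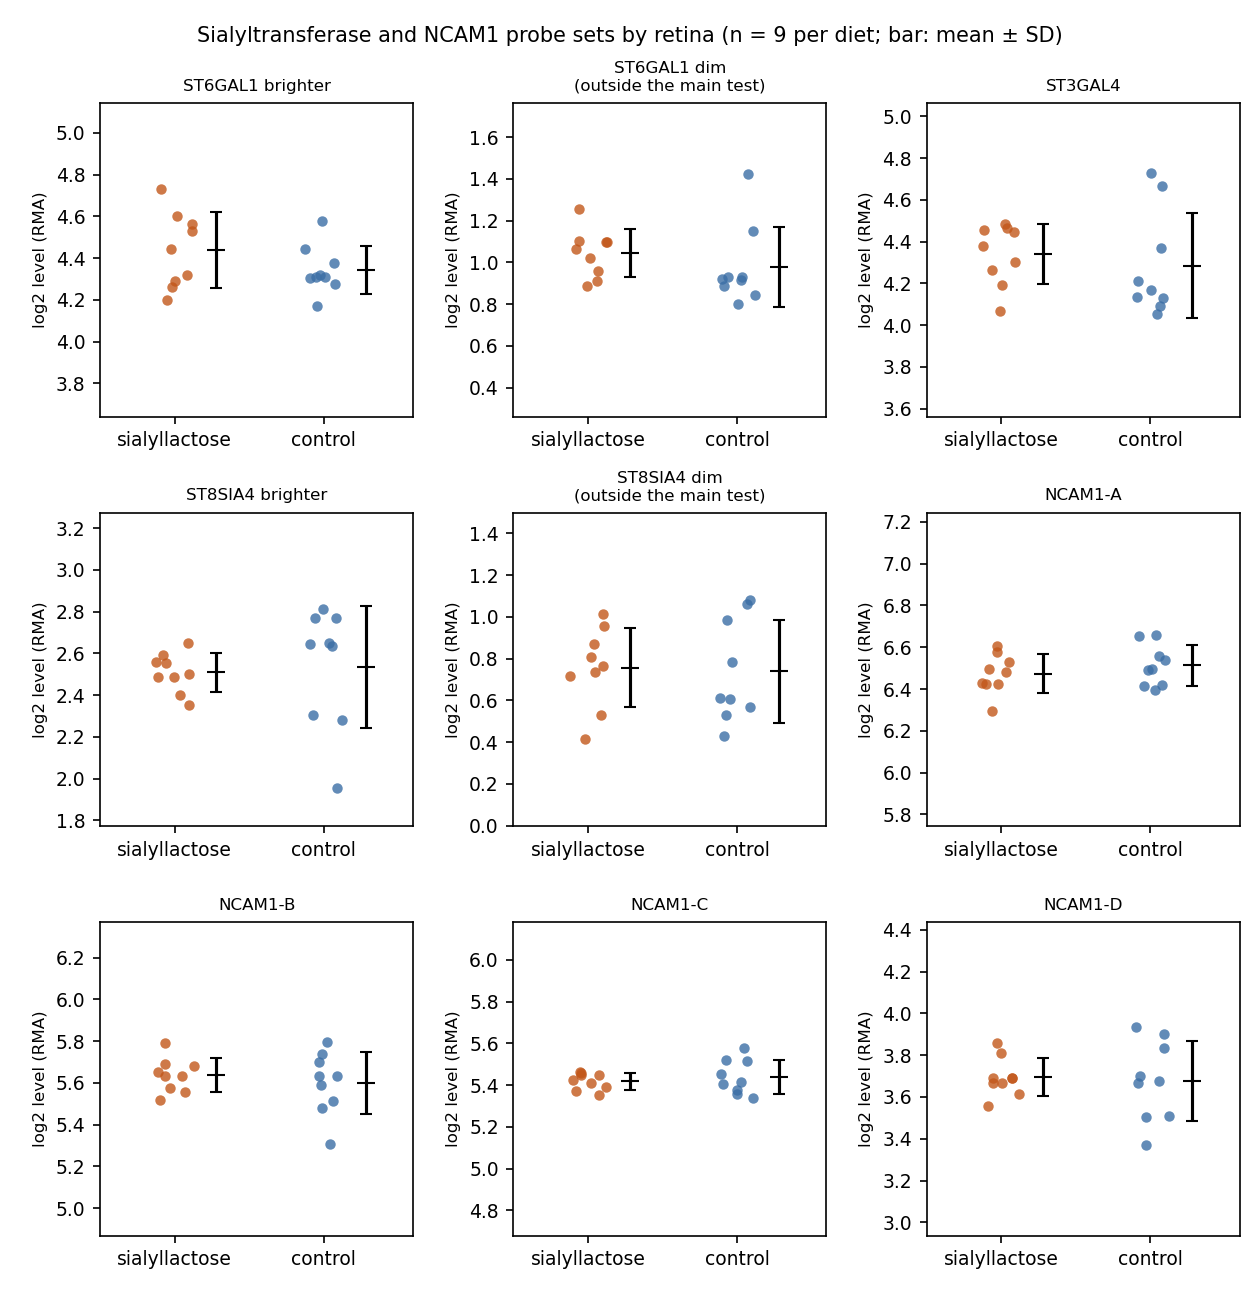
Log2 level of each of the 9 probe sets in each retina, with sialyllactose retinas on the left and control retinas on the right of each panel. Points are retinas, black bars are the mean ± SD of 9 retinas, and every panel spans the same number of log2 units. The brighter probe set of ST8SIA4 shows 3 low control retinas, the lowest at 1.96, beside a narrow sialyllactose group.

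The diet differences of NCAM1 were small in all 4 probe sets and did not share a sign. They were -0.04 (95% interval -0.15 to 0.07) in NCAM1-A, 0.04 (-0.09 to 0.16) in NCAM1-B, -0.02 (-0.11 to 0.07) in NCAM1-C and 0.02 (-0.13 to 0.16) in NCAM1-D. The mean of the 4 probe sets differed by -0.002 (interval -0.09 to 0.08). Without control replicate 2 the difference in NCAM1-B was 0.001, that in NCAM1-A -0.02 and that in NCAM1-D 0.05. The sign of NCAM1-D turned without control replicate 5, 8 or 9 or sialyllactose replicate 8, with values of -0.02, -0.006, -0.005 and -0.004.

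None of the 7 tested probe sets passed the test across the whole table (limma, Benjamini-Hochberg adjusted p from 0.863 for ST6GAL1 to 0.988 for NCAM1-D). The background for this rule was 0 of 16799 tested probe sets, or 0%. At an unadjusted p under 0.05 none of the 7 was called either, beside 1059 probe sets or 6.3% of the table, and the smallest unadjusted p was 0.192, for ST6GAL1. The 95% intervals of the 7 tested probe sets lay between 0.857-fold and 1.18-fold, and those of the NCAM1 probe sets between 0.903-fold and 1.12-fold. In whole tissue, a change in the number of cells of a type and a change in transcript per cell cannot be told apart.

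**Figure D2:**
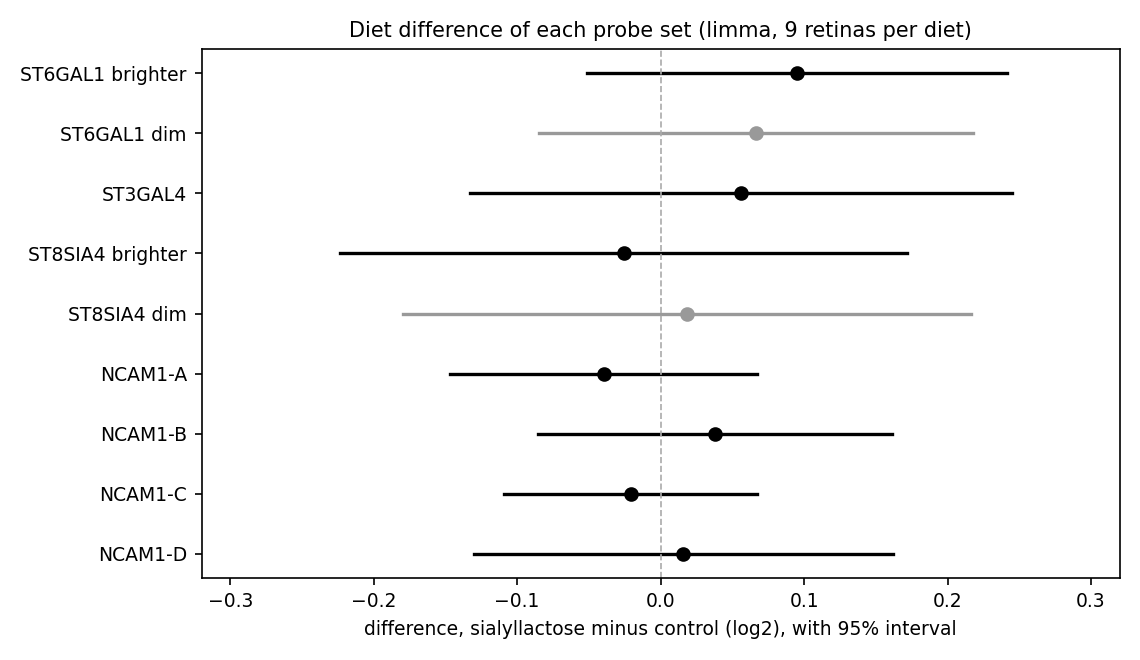
Difference in mean log2 level, sialyllactose minus control, for each probe set, with its 95% interval from limma (9 retinas per diet). Grey marks the 2 dim probe sets outside the main test. Every interval includes 0, and the largest difference is 0.10 for the brighter probe set of ST6GAL1.

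The other genes of the pathway were described from lists of textbook members. Of 20 sialyltransferases on the list, 8 had a named probe set and 6 were tested, 4 with higher and 2 with lower means in sialyllactose retinas (median difference 0.03), where 43.3% of all 5710 tested genes had higher means and the median difference was -0.01. Beside the 3 followed here, they were ST3GAL1, which sialylates short O-linked chains, at 5.21 ± 0.15 and 5.21 ± 0.19, and ST6GALNAC4 at 2.50 ± 0.17 and 2.43 ± 0.30 (sialyllactose and control, SD, n = 9 each). The sixth, ST6GALNAC5, known for making gangliosides in brain, was near the filter at 1.49 ± 0.18 and 1.51 ± 0.22. ST8SIA2, the other polysialyltransferase, had no named probe set and was not analysed here.

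Of the 6 tested polysialic acid carriers and NCAM partners, 1 had a higher and 5 had lower means in sialyllactose retinas (median difference -0.04). NCAM1 itself, at NCAM1-A, is 1 of the 5. The higher one was CADM1, an adhesion molecule that can also carry polysialic acid, at 4.33 ± 0.14 against 4.22 ± 0.25 in control retinas (difference 0.11, 95% interval -0.08 to 0.30). Of 10 tested genes of N-glycan branching and galactose addition, which build the chains that sialyltransferases cap, 2 had higher and 8 had lower means (median difference -0.04). FUT8, which adds the core fucose, had the smallest p of the lower ones, at 3.90 ± 0.19 against 4.04 ± 0.11 (difference -0.13, interval -0.28 to 0.02), and B4GALT5 that of the higher ones, with a difference of 0.01.

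Of 8 tested genes of sialic acid supply and removal, 1 had a higher mean (NPL, a sialic acid lyase, difference 0.07) and 7 had lower means, among them GNE, the entry enzyme of sialic acid synthesis, at -0.09. Of 3 tested lectins that bind sialic acid or galactose, LGALS9 differed by 0.14 (2.78 ± 0.15 against 2.64 ± 0.13) and LGALS1 by -0.23 (7.82 ± 0.18 against 8.05 ± 0.29), each with an interval that excludes 0, and the third, LGALS3, named after its values were seen, by 0.006 (interval -0.44 to 0.45). These 2 were the only genes of the 5 lists with an unadjusted p under 0.05, where 5.6% of all tested genes had one. No gene of the 5 lists passed the adjusted test (limma adjusted p = 0.779 for LGALS9 and 0.773 for LGALS1). Several lists of cell type markers had larger median differences than the pathway lists. In Mueller glia markers 7 of 8 genes were lower (median difference -0.13) and in endothelium and pericyte markers 8 of 9 (-0.11). In astrocyte markers 3 of 3 were lower (-0.18), though the brightest, ALDOC, differed by only -8e-05. In pigment epithelium markers 3 of 4 were lower (-0.14), in bipolar and horizontal cell markers 2 of 2 (-0.12) and in amacrine cell markers 5 of 5 (-0.05). Ganglion cell and leukocyte markers were lower in 3 of 5 each (-0.0095 and -0.0005). An unadjusted p under 0.05 was found in 3 endothelium and pericyte genes. The Mueller glia, astrocyte, pigment epithelium, bipolar and horizontal cell and leukocyte lists each had 1 such gene. Higher means were found in 4 of 4 cone markers (0.09). Of 2 rod markers 1 was higher, while SAG, the brightest, differed by -0.10, so their median of 0.09 joins opposite signs. None of these genes passed the adjusted test. The part of these cell types in the differences of the pathway lists was not tested.

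Agreement between probe sets of the same gene was examined between retinas, after the mean of each diet was removed so that diet could not produce it. For ST6GAL1 the bright and dim probe sets had a Pearson r of 0.41 (permutation p = 0.0654) and a Spearman rho of 0.33 (permutation p = 0.185) over the 18 retinas, and r was 0.33 without the 2 retinas farthest from the median. For the 2 probe sets of ST8SIA4, r was -0.07 (permutation p = 0.824, rho 0.08, permutation p = 0.759), and it was 0.32 without control replicate 2. Among the 6 pairs of NCAM1 probe sets, r ran from -0.37 (NCAM1-B with NCAM1-D) to 0.46 (NCAM1-B with NCAM1-C), and rho for these pairs was -0.31 and 0.34. Their permutation p was 0.218 and 0.112 for r and 0.254 and 0.211 for rho, and without the 2 farthest retinas r was -0.16 and 0.33.

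None of the 8 relations passed after adjustment over the 8 (lowest adjusted p = 0.446 for r and 0.546 for rho, permutation). In the same table, the 2 brightest probe sets of 1562 genes with more than 1 tested probe set had a median r of 0.18, with quartiles of -0.05 and 0.41, and 28.5% of these genes had an r below 0. The 2 brightest probe sets of NCAM1 had an r of -0.13, which was 0.18 without control replicate 2. The spread of NCAM1 differed between its probe sets: the within-diet SD lay at percentile 1.36 of the tested probe sets in NCAM1-C, 10.6 in NCAM1-A, 24.2 in NCAM1-B and 45.8 in NCAM1-D. The corresponding percentiles were 46.7 for ST6GAL1, 78.3 for ST3GAL4 and 82.4 for ST8SIA4.

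**Figure D3:**
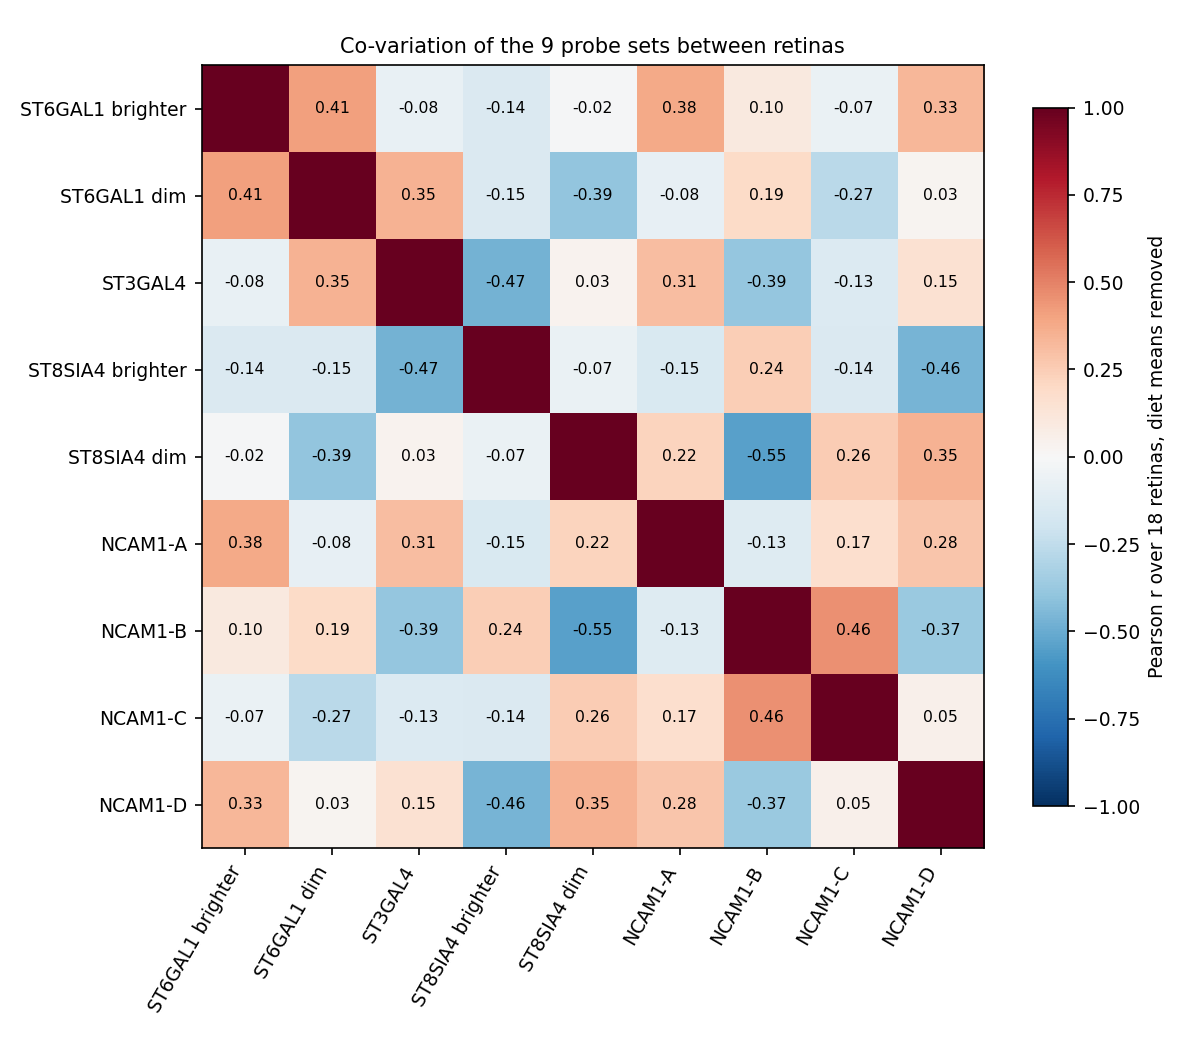
Pearson r between each pair of the 9 probe sets over 18 retinas, after the mean of each diet was removed. The scale runs from -1 to 1, and the pairs within NCAM1, in the lower right corner, range from -0.37 to 0.46.

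Co-variation between the 4 genes, each at its brightest probe set, was weak. The most distant from 0 was that of ST3GAL4 with ST8SIA4, with an r of -0.47 (permutation p = 0.0990) and a rho of -0.45 (permutation p = 0.0806). It moved with the retinas kept: control replicate 2 was the highest retina in ST3GAL4 and the lowest in ST8SIA4, and without it r was -0.11 (permutation p = 0.751). Without control replicates 2 and 9, the 2 farthest, r was -0.54. Within diets, with all retinas kept, r was -0.55 in the sialyllactose retinas and -0.47 in the control retinas. Without control replicate 2 the r in control retinas was 0.05. ST6GAL1 and NCAM1 had an r of 0.38 (permutation p = 0.128, rho 0.39, permutation p = 0.113), which was 0.50 without the 2 farthest retinas and 0.39 without control replicate 2. Within diets, that r was 0.72 in the sialyllactose retinas and -0.10 in the control retinas, and the difference was not tested.

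ST3GAL4 and NCAM1 had an r of 0.31 (permutation p = 0.234, rho 0.15, permutation p = 0.568), with -0.45 in sialyllactose and 0.74 in control retinas, a difference that was not tested, and r was -0.21 without control replicates 2 and 9. ST8SIA4 and its acceptor NCAM1 had an r of -0.15 (permutation p = 0.582, rho -0.01, permutation p = 0.958), which was 0.20 without control replicate 2. These relations depended on the NCAM1 probe set. With NCAM1-B, NCAM1-C and NCAM1-D in turn, r was 0.24, -0.14 and -0.46 for ST8SIA4. It was 0.10, -0.07 and 0.33 for ST6GAL1, and -0.39, -0.13 and 0.15 for ST3GAL4. These values were not tested and were not computed without control replicate 2. ST6GAL1 had an r of -0.14 with ST8SIA4 and of -0.08 with ST3GAL4 (permutation p = 0.498 and 0.736, rho -0.11 and -0.06, permutation p = 0.635 and 0.800). None of the 6 relations between the brightest probe sets passed after adjustment over the 6 (lowest adjusted p = 0.383 for r and 0.338 for rho, permutation).

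What else moved with the 4 genes between retinas was examined with marker lists of 5 cell types and of the interferon response. Each gene was again taken at its brightest probe set, which is NCAM1-A for NCAM1. A list score is the mean deviation of its tested genes from the diet mean in a retina. ST6GAL1 was lower in retinas with higher ganglion cell markers: r was -0.69 (permutation p = 0.00189, adjusted p = 0.0454 over 24 relations) and rho was -0.67 (permutation p = 0.00457, adjusted p = 0.110). The r was -0.69 within sialyllactose and -0.75 within control retinas, and -0.53 without the 2 retinas farthest from the ST6GAL1 median. Leaving out single retinas kept r between -0.76 and -0.61. The adjusted p rose above 0.05 in 15 of these 18 fits, was 0.0667 without control replicate 2 and was highest, 0.186, without control replicate 7.

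The 5 tested ganglion cell genes all had a negative r with ST6GAL1, and they differed in size. STMN2, a microtubule regulator of growing neurons, had -0.68, RBPMS, an RNA-binding protein that marks ganglion cells, -0.64, and NEFL, a neurofilament subunit, -0.60, with rho of -0.61, -0.48 and -0.64. GAP43, a growth cone protein, had -0.25 and THY1, a surface protein, -0.16. These genes make up the list score and were looked at after its relation was seen, so their values describe it and carry no p. Without the 2 farthest retinas, r was -0.45 for STMN2, -0.40 for RBPMS and -0.47 for NEFL. The dim probe set of ST6GAL1 had an r of -0.48 with the list (permutation p = 0.0685, rho -0.25, permutation p = 0.317), which was -0.10 without its 2 farthest retinas. Within diets, the r of this dim probe set was 0.14 in sialyllactose and -0.83 in control retinas, and the difference was not tested.

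Mueller glia markers had the opposite sign with ST6GAL1, with an r of 0.54 (permutation p = 0.0265, rho 0.53, permutation p = 0.0305), and with NCAM1, with an r of 0.49 (permutation p = 0.0461, rho 0.51, permutation p = 0.0378). Neither passed after adjustment (adjusted p = 0.159 and 0.221 for r, permutation), and without the 2 farthest retinas r was 0.43 and 0.51. Endothelium and pericyte markers had an r of 0.52 with ST8SIA4 (permutation p = 0.0166, rho 0.38, permutation p = 0.0910) and of -0.54 with ST3GAL4 (permutation p = 0.0183, rho -0.44, permutation p = 0.0609). These did not pass either (adjusted p = 0.146 for both, permutation), and without control replicate 2 they were 0.25 and -0.34. Leukocyte and pigment epithelium markers gave no relation with an unadjusted permutation p for r under 0.05, and NCAM1 with leukocyte markers had a rho of 0.50 (permutation p = 0.0442, adjusted p = 0.266). For the interferon list no single r is given, because sialyllactose replicates 4 and 7 stood 1.57 and 1.62 above their diet mean, away from the other retinas of that diet. RNA integrity was measured as the 3 prime minus 5 prime difference of the GAPDH control probe sets, which is higher where RNA is less intact. That difference had an r of 0.34 with ST6GAL1 and 0.40 with NCAM1 (permutation p = 0.199 and 0.113, rho 0.29 and 0.47, permutation p = 0.268 and 0.0597). Within sialyllactose retinas these r were 0.67 and 0.58, and within control retinas -0.24 and 0.20. With this measure regressed out, r was -0.71 for ST6GAL1 with the ganglion cell list, 0.49 for ST6GAL1 and 0.43 for NCAM1 with Mueller glia markers, and 0.28 for ST6GAL1 with NCAM1.

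**Figure D4:**
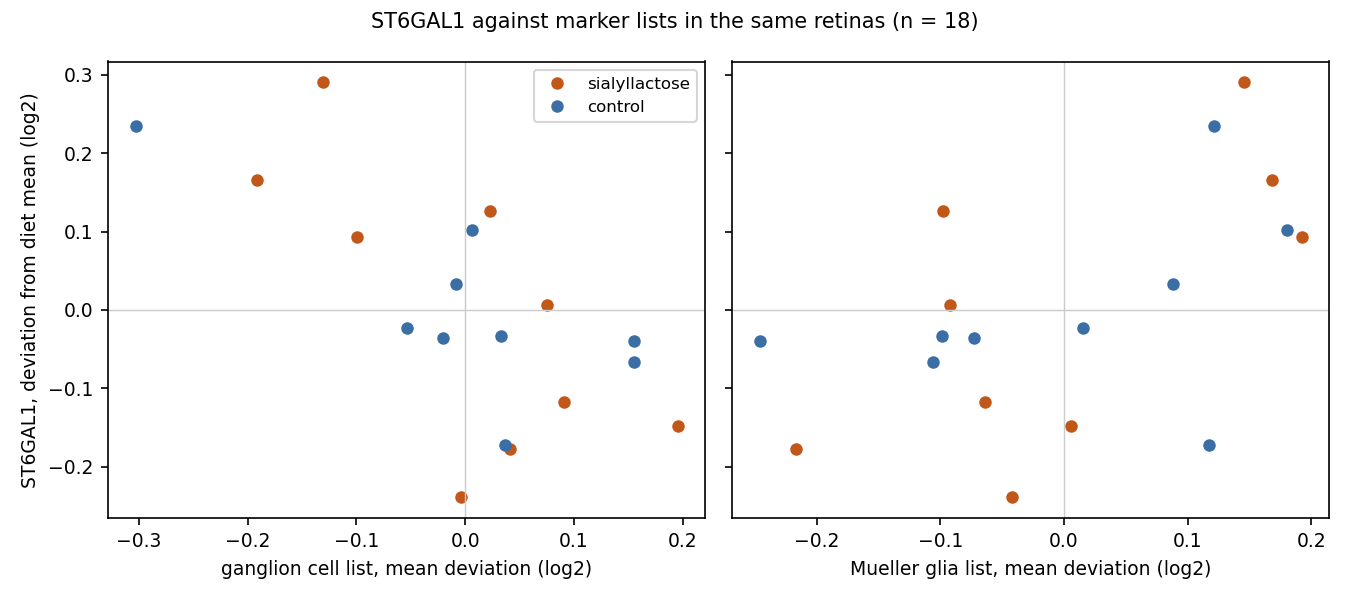
ST6GAL1 (brighter probe set) against the mean deviation of 5 ganglion cell genes (left) and 8 Mueller glia genes (right) in the same 18 retinas, all as log2 deviations from the diet mean. Retinas of both diets lie along a falling pattern on the left (r = -0.69) and a looser rising one on the right (r = 0.54).

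The genes whose pattern between retinas was most like that of each member were found among 5706 tested genes, by r over 18 retinas with diet means removed. Each member was taken at its brightest probe set only. ST6GAL1 was most like FXYD6, a regulator of the sodium pump (0.78), MAN2A2, a Golgi mannosidase that trims N-glycans (0.76), and CPD, a carboxypeptidase of the secretory pathway (0.75). These 3 had an r of 0.85, 0.76 and 0.78 without control replicate 2. NCAM1-A was most like BIN1, a membrane-shaping protein (0.88), SLC35C2, a Golgi transporter-like protein (0.87), and TMX4, a thioredoxin-like membrane protein (0.82). Without control replicate 2 these were 0.86, 0.89 and 0.81. With NCAM1-B, NCAM1-C and NCAM1-D, NCAM1-A had an r of only -0.13, 0.17 and 0.28, so these neighbours describe 1 of the 4 probe sets.

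ST3GAL4 was most like ZFAND2B, ADCK2 and MRPL24, a mitochondrial ribosomal protein (0.81, 0.81 and 0.80). ST8SIA4 was most like WDR45B, TCIRG1, a proton pump subunit, and CAMK1G, a calcium-dependent kinase (0.83, 0.81 and 0.78). These relations were smaller without control replicate 2, at 0.70, 0.77 and 0.68 for ST3GAL4 and at 0.61, 0.69 and 0.62 for ST8SIA4. Within sialyllactose retinas they were 0.57, 0.52 and 0.48 for ST3GAL4 and 0.53, 0.48 and 0.45 for ST8SIA4. Within all control retinas they were 0.875, 0.92 and 0.93 for ST3GAL4 and 0.86, 0.94 and 0.84 for ST8SIA4, and the difference was not tested. All were picked as the highest of 5706, so they carry no p. The median size of r with a tested gene was 0.17 for ST6GAL1, 0.23 for ST3GAL4, 0.25 for ST8SIA4 and 0.23 for NCAM1. The 95th percentile of that size was 0.48, 0.58, 0.61 and 0.57 in the same order. Points of every such correlation share the array, its scaling and the RNA sample.

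**Figure D5:**
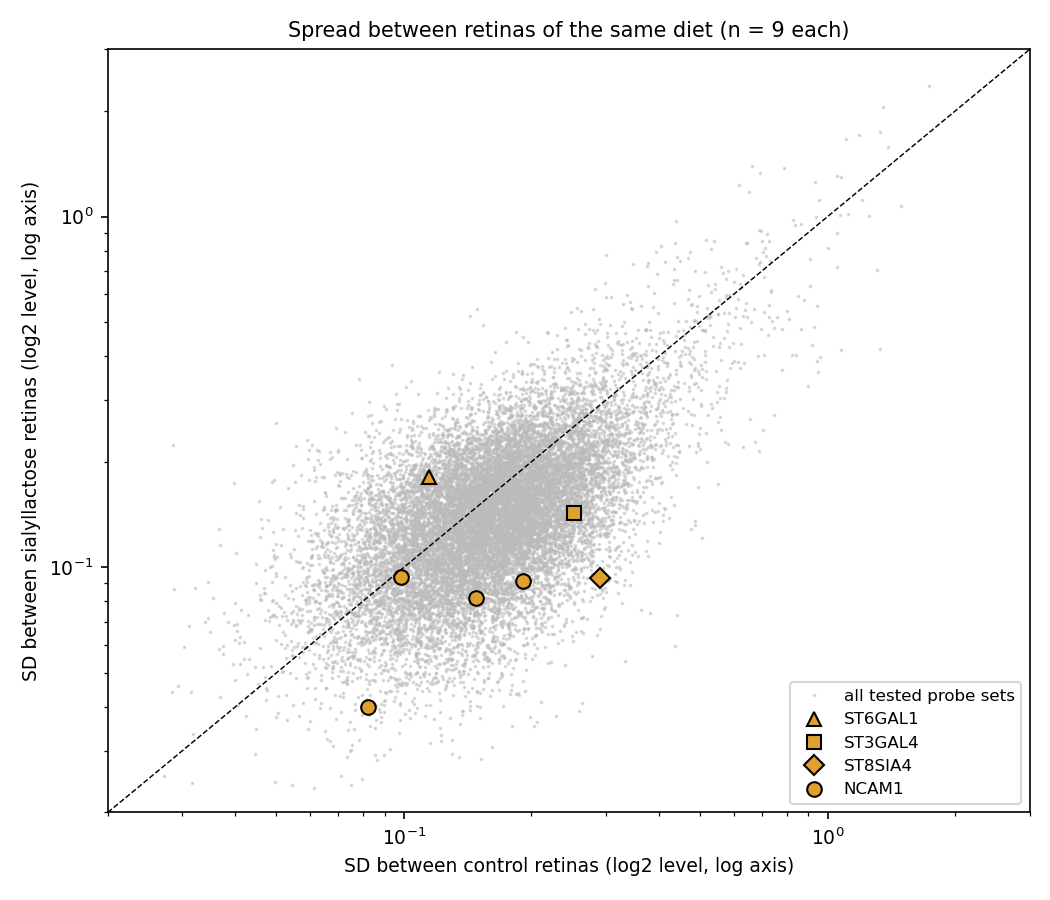
SD between sialyllactose retinas (vertical) against SD between control retinas (horizontal) for each tested probe set, in log2 units on log axes, with n = 9 per diet and a dashed line of equality. Grey points are all 16799 tested probe sets; ST8SIA4 lies farthest below the line among the members (SD 0.09 against 0.29) and ST6GAL1 above it (0.18 against 0.11).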

How the data were processed

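The authors deposited 1 log2 value per probe set and array, made with Affymetrix Expression Console and RMA per the submitters' processing notes. RMA settings and versions are not given in the sources used here, and RMA gives no detection call and compresses differences of dim probe sets. All 18 value columns were mapped by name, and groups came from the sample titles. Removing the 124 control probe sets whose names start with AFFX and the dimmest 30% of the others by mean (7200) left 16799. Reporter probe sets, whose names start with RPTR, were not removed as controls, and some are among the 16799. Of the 9 probe sets described, 7 were tested; the other 2 took their values from a fit without that filter. Symbols came from the platform annotation (10099 probe sets with 1 symbol, 198 with several, 13826 with none), and 9989 gene IDs matched RefSeq with 0 symbols changed. A gene of a list was taken at its brightest tested probe set. No build is named for the array, so no coordinates are given.

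The diet difference, sialyllactose minus control, was fitted with limma 3.58.1 in R 4.3.3 (lmFit, eBayes, no covariates), with Benjamini-Hochberg adjustment over the 16799 and a threshold of 0.05. The fit was tested on simulated data with known changes. Correlations used two-sided tests of 100000 permutations within diets. The members, lists and tests were chosen with earlier results of these data known. The genes named were the members, the 3 genes most like each, the smallest p per direction of each pathway list, every tested sialyltransferase and the brightest marker of a list. Alternatives were no filter, a 50% filter, median centring, quantile normalization, a replicate block, array weights, an intensity trend, exact permutation, an adjusted p under 0.1, the mean of the NCAM1 probe sets and leaving out each array. RNA integrity as a covariate and the correlations without single arrays were added after the data were seen. No litter, batch or date is in the labels, and none could be tested, and the number of arrays limits the precision.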

Additional observations from a re-analysis of the deposited data

How the results depend on the processing

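No probe set passed the adjusted test under any alternative run (0 in each, also at an adjusted p under 0.1 and in all 18 fits without 1 array). Of 189 refits of the 7 tested member probe sets, 182 kept the sign and none passed; the lowest adjusted p was 0.772. Without single arrays the diet difference ran from 0.06 to 0.12 for ST6GAL1, 0.03 to 0.11 for ST3GAL4, -0.10 to 0.0086 for ST8SIA4, and, for NCAM1, -0.06 to -0.02 in NCAM1-A, 0.001 to 0.06 in NCAM1-B, -0.03 to -0.004 in NCAM1-C and -0.022 to 0.048 in NCAM1-D. The 7 changes of sign all came from leaving out 1 array, in ST8SIA4 (3) and NCAM1-D (4). Array weights moved ST3GAL4 to 0.11, ST8SIA4 to -0.06 and NCAM1-B to 0.01. Among correlations, r turned to -0.010 for ST3GAL4 with the mean of the NCAM1 probe sets and to 0.20 for ST8SIA4 with NCAM1 without control replicate 2. Between probe sets, centring on medians gave -0.014 for NCAM1-A with NCAM1-C and -0.027 for NCAM1-C with NCAM1-D; leaving out control replicate 2 gave 0.32 for ST8SIA4 and 0.18 for NCAM1-A with NCAM1-B. With endothelium and pericyte markers, r turned to -0.016 (centring), -0.0009 (quantile) and -0.018 (RNA integrity regressed out) for NCAM1 and to -0.0195 for ST6GAL1 (RNA integrity), whose r with pigment epithelium markers turned to 0.048. The cause of these turns was not tested.

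The relation of ST6GAL1 with ganglion cell markers passed under centring (-0.72), quantile normalization (-0.71) and RNA integrity regressed out (-0.71), and in 3 of 18 fits without 1 array. The labels do not say whether same-numbered retinas of the diets were paired. Their deviations correlated between -0.11 and 0.16, and in 3 of 9 the own number was the best match. Whether they were paired cannot be told from these values. With the replicate number as a block 0 probe sets passed, and the ST6GAL1 difference of 0.10 had an interval of -0.07 to 0.26.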

Other observations

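The spread between retinas of the same diet was set out for the 7 tested probe sets after their values were seen. In 6 of the 7 the SD was smaller in sialyllactose than in control retinas, with a ratio of 0.321 for ST8SIA4, 0.478 to 0.953 for the NCAM1 probe sets and 0.569 for ST3GAL4, while ST6GAL1 had a ratio of 1.57. The SD was smaller with sialyllactose in 62.6% of all tested probe sets, with a median ratio of 0.875. The absolute deviation from the group median was put to a permutation test over all 48620 label splits. The medians were not taken again in each split, so the p-values are approximate. The test gave no member an unadjusted p under 0.05 (0.0642 for NCAM1-D, 0.0827 for ST6GAL1 and 0.104 for ST8SIA4). After Benjamini-Hochberg adjustment 0 of all tested probe sets passed it, while 477 (2.84%) had a raw p under 0.05. Without control replicate 2 the SD was smaller with sialyllactose in 5 of the 7 and in 54.6% of all tested probe sets, and the ratio of ST8SIA4 was 0.452.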
